A study of Mus musculus with 32 samples.

Results

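Excision repair in the kidney was compared with that in 3 other organs of the same strain of mouse, using the 2 kidney libraries of XR-seq against the 6 libraries of liver, lung and spleen. These 8 libraries belong to a series of 32 samples that also covers Damage-seq and RNA-seq. All mice were wild-type C57BL/6J females, 6 to 7 months old, and each organ was sampled as a whole, with no sorting of cells. Mice whose repair was mapped received a single intraperitoneal injection of 10 mg cisplatin per kg at zeitgeber time 1 (1 h after lights on) and were killed at zeitgeber time 5, while a label of each sample gives the time after treatment as 2 h. The 2 libraries per organ are described as biological replicates, the labels do not say whether 1 mouse gave more than 1 organ, and p-values measure only the spread between these libraries. The measurement is the number of XR-seq reads on the transcribed strand (TS) of each gene, introns included, scaled to 1000000 reads of the library over all genes, where the TS and the opposite, non-transcribed strand (NTS) both count, and is called CPM.

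Cisplatin binds DNA mainly at neighbouring guanines and joins them into an intrastrand adduct. Nucleotide excision repair cuts a short oligomer around the adduct out of the damaged strand, and XR-seq captures and sequences these oligomers. On the strand that RNA polymerase reads, a stalled polymerase calls the repair machinery to the adduct, which is called transcription-coupled repair, whereas general repair works on both strands. The kidney filters blood in the glomerulus and recovers water, ions, sugars and amino acids along the nephron, and it takes cisplatin up through organic cation transporters of the proximal tubule.

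The kidney libraries held 18406613 and 27921971 reads on genes, and those of the other organs between 10658675 and 59779770. The TS carried 85.1% of the reads in both kidney libraries and 83.8% to 90.0% in the others. Markers of the kidney label stood out on the TS, with 9 genes summing to 344 and 373 CPM in kidney and to between 15.8 and 25.8 CPM elsewhere. Of the 4 liver markers, Alb, Cps1 and Fgb lay between 0 and 1.83 CPM in kidney, while Apob reached 54.4 and 32.6 CPM. The 4 adrenal markers summed to 21.2 and 23.9 CPM in kidney and to 10.2 to 34.6 CPM elsewhere, of which Star made up 17.3 and 19.1 CPM in kidney, Cyp11a1 2.83 and 1.61 CPM, Nr5a1 1.09 and 2.87 CPM, and Cyp11b1 0 and 0.287 CPM. The 4 fat markers summed to 9.24 and 7.92 CPM in kidney and to 3.23 to 9.76 CPM elsewhere, with Plin1 at 8.15 and 6.16 CPM and Adipoq at 0 and 0.609 CPM in kidney. The part of adrenal gland or fat in the results was not tested. The 4 lung markers did not set lung (18.7 and 17.8 CPM in sum) apart from spleen (19.3 and 18.6 CPM) on the TS. The kidney libraries differed from each other. Of the 19736 genes tested, 14.4% had no TS read in kidney replicate 1, against 0.948% in kidney replicate 2, which touches the results on low genes. Spleen replicate 1, with the fewest reads, had 10.9%, and lung replicate 1, with the most, 5.99%. In each organ the share was higher in replicate 1. Beyond low genes, the spread between replicates in multiples of counting error was 32.7 on the TS in kidney and 8.81 to 24.2 elsewhere. On the NTS it was 21.6 and 7.26 to 9.82. It was not adjusted for depth. For each gene, the tests below used a spread common to all organs.

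Which genes were repaired more, or less, in the kidney than elsewhere was asked with edgeR's quasi-likelihood test of the TS reads, with Benjamini-Hochberg adjustment over all genes tested and a threshold of 0.05. Against the mean of the 3 other organs, 4696 of 19736 genes were higher in kidney (23.8%) and 2448 were lower (12.4%). A stricter reading required the same direction against liver, lung and spleen, each on its own, and left 878 genes that were higher (4.45%) and 677 that were lower (3.43%). Of these, 590 were at least 2-fold higher than in each organ (2.99%) and 250 at least 2-fold lower (1.27%), a limit that was added after the data had been seen. The median gene lay 0.19 above 0 on the log2 scale, and with TMM scaling it lay at 0.00 and the split turned to 3054 higher and 3358 lower, so differences of this size are not read as changes below. DESeq2 with its own scaling gave 3375 higher and 3746 lower. When the 6 other libraries were taken as 1 group, so that differences among liver, lung and spleen entered the spread, 280 genes were higher and 120 lower. With TMM scaling, 621 genes were higher and 976 lower than in each organ, and they held 515 of the 590 genes (87.3%) and all 250 genes beyond 2-fold. In bulk tissue, fewer cells of a type and less repair per cell cannot be told apart.

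Organ by organ, kidney was higher than liver in 30.9% of the genes tested and lower in 15.5%, higher than lung in 14.7% and lower in 11.6%, and higher than spleen in 17.4% and lower in 13.6%. Among protein-coding genes called against each organ and above 20 CPM in at least 1 organ, the 8 highest by the fitted log2 difference from the mean of the other organs were Kif12, Slc22a6, Tfap2b, Slco1a6, Ush1c, Emx1, Emx2 and Bsnd. Slc22a6 (chr19:8618039-8628299, GRCm38), which codes for the organic anion transporter of the basolateral membrane of the proximal tubule, had 30.9 and 14.9 CPM in the 2 kidney libraries, 0.266 and 0.832 in liver, 0.0167 and 0.141 in lung, and no read in either spleen library. The kidney mean was 41.7-fold that of liver, the next organ, which was the smallest such fold among the 8 (log2 difference from liver 5.39 ± 0.79 SE, edgeR adjusted p = 0.000217, n = 2 libraries per organ). Kif12 (chr4:63165630-63172131), a kinesin gene, had 32.5 and 41.5 CPM in kidney, while liver had 0.550 and 1.07, lung 0.0669 and 0.329, and spleen none. For these 2 genes no fitted difference from the mean is given, because spleen was at 0 and the fitted value, and with it their rank, then depends on the prior count.

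Ush1c (chr7:46195350-46238503), whose product harmonin is a scaffold of brush borders and of sensory hair cells, was the most abundant of the 8 in kidney, with 164 and 125 CPM. The other 6 libraries lay between 0.446 and 1.32 CPM, and the log2 difference from their mean was 7.23 ± 0.28 (edgeR adjusted p = 8.54e-09). Bsnd (chr4:106483456-106492283), which codes for barttin, the subunit that chloride channels of the thick ascending limb need, had 21.4 and 21.2 CPM in kidney and at most 0.499 CPM elsewhere. Tfap2b, Emx1 and Emx2 code for transcription factors and are described with that group. Ush1c, Emx2 and Slco1a6 share their span with a gene on the opposite strand, as do Slamf6, Ly9, Pax2, Pax8, Umod, Scnn1b, Hnf4a, Esrrg, Mecom, Ppargc1a, Tfap2a, Grhl2, Col4a3, Lmx1b, Cyp24a1, Slc47a2, Krt8, Ddb2, Psmb8, Psmb9, Atg10 and Vpreb3 below, while Pou2af1, Abcg3, Stap1, Rhcg, Spp1 and Hoxd10 share theirs with a gene on the same strand. For each of the 8 genes both kidney libraries were above all 6 others, by 41.7-fold to 156-fold of means against the next organ.

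**Figure D1:**
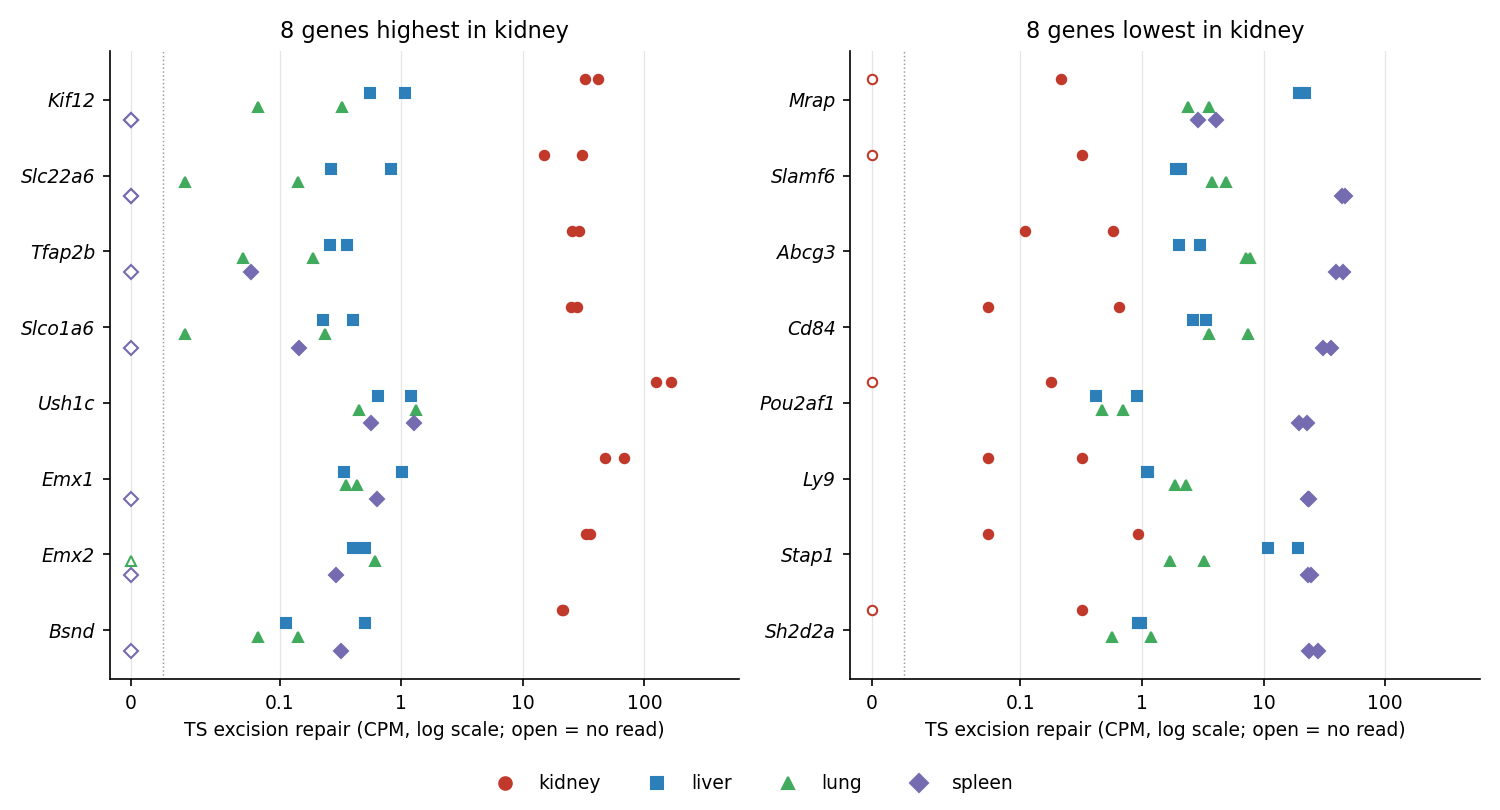
TS excision repair in CPM (log scale, with libraries without a read drawn as open symbols left of the dotted line) of the 8 protein-coding genes highest in kidney and the 8 lowest, 1 symbol per library and 2 libraries per organ. Kidney libraries lie between 14.9 and 164 CPM in the left panel and at or below 0.931 CPM in the right panel, where kidney replicate 1 is the lower of the pair in each gene.

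Transport and enzyme genes of the proximal tubule, the segment that recovers most of the filtrate, were higher in kidney as a group. Of 39 transport genes tested, 36 were higher than the mean of the other organs and 0 lower, and 20 were higher than each organ, with a median log2 difference of 3.73 beside 0.19 over all genes tested. Slc6a18, a transporter of neutral amino acids, had 17.8 and 21.9 CPM in kidney and at most 0.375 CPM elsewhere (log2 difference 6.45 ± 0.54, edgeR adjusted p = 2.15e-06). Slc22a8, a second organic anion transporter, had 17.4 and 18.3 CPM in kidney, 1.48 and 1.04 in liver, and at most 0.164 in lung and spleen. Lrp2, which codes for the endocytic receptor megalin, had 87.5 and 92.7 CPM in kidney against 1.15 to 6.34 CPM. Of 35 proximal tubule enzymes, 27 were higher and 0 lower, but only 7 were higher than each organ, and liver was above kidney for 5 of them and below it for 11. Mep1a, the brush border protease meprin, had 18.7 and 18.4 CPM in kidney and at most 0.531 CPM elsewhere, and Miox, which opens the inositol ring, had 7.93 and 8.595 CPM against at most 0.689 CPM.

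The later segments of the tubule gave high shares as well, with the thick ascending limb, which builds the medullary salt gradient, at the top. Of 16 genes of that segment, 14 were higher than the mean and 12 than each organ, with a median log2 difference of 4.83. Umod, whose product uromodulin is the most abundant protein of urine, was at only 4.83 and 3.51 CPM in kidney, with 1.02 and 0.689 CPM in liver, and its excess over liver did not pass the test (log2 difference 2.28 ± 1.09, edgeR adjusted p = 0.113). In the distal convoluted tubule 10 of 17 genes were higher and 8 were higher than each organ. Among them, Fxyd2, the gamma subunit of the sodium pump, had 54.4 and 39.8 CPM in kidney and at most 1.41 CPM elsewhere, and Calb1, which codes for a calcium-binding protein, had 7.39 and 9.20 CPM against at most 0.594 CPM.

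Among principal cell genes of the collecting duct, 10 of 14 were higher and 1 was lower, and 5 were higher than each organ. Scnn1b, a subunit of the epithelial sodium channel, had 40.6 and 36.3 CPM in kidney, with lung next at 7.88 CPM in both libraries (log2 difference from lung 2.29 ± 0.41, edgeR adjusted p = 0.00111). Aqp3, the water channel of the basolateral membrane, had 20.6 and 14.5 CPM, with spleen next at 3.75 and 4.07 CPM. Intercalated cells, which secrete acid or base, gave the lowest share of the tubule, with 5 of 17 genes higher, near the 23.8% of all genes. Rhcg, an ammonia channel, was among the 5 with 15.6 and 23.9 CPM in kidney and at most 1.14 CPM elsewhere. The median of these 17 genes was a log2 difference of 1.30, and 16 of them were higher in kidney RNA.

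Podocyte genes were split. Of 20 tested, 10 were higher and 4 lower than the mean, and 4 were higher than each organ, among them Col4a3 and Col4a4, which code for chains of the collagen of the glomerular basement membrane. Col4a4 had 134 and 100 CPM in kidney, and the other 6 libraries lay between 2.14 and 11.5 CPM (log2 difference 4.27 ± 0.18, edgeR adjusted p = 1.22e-08). Col4a3, its neighbour on chromosome 1 in the opposite orientation, had 127 and 106 CPM in kidney against 3.38 to 14.4 CPM. Lmx1b, a podocyte transcription factor gene, had 12.0 and 13.4 CPM in kidney and 1.69 to 4.11 CPM elsewhere.

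**Figure D2:**
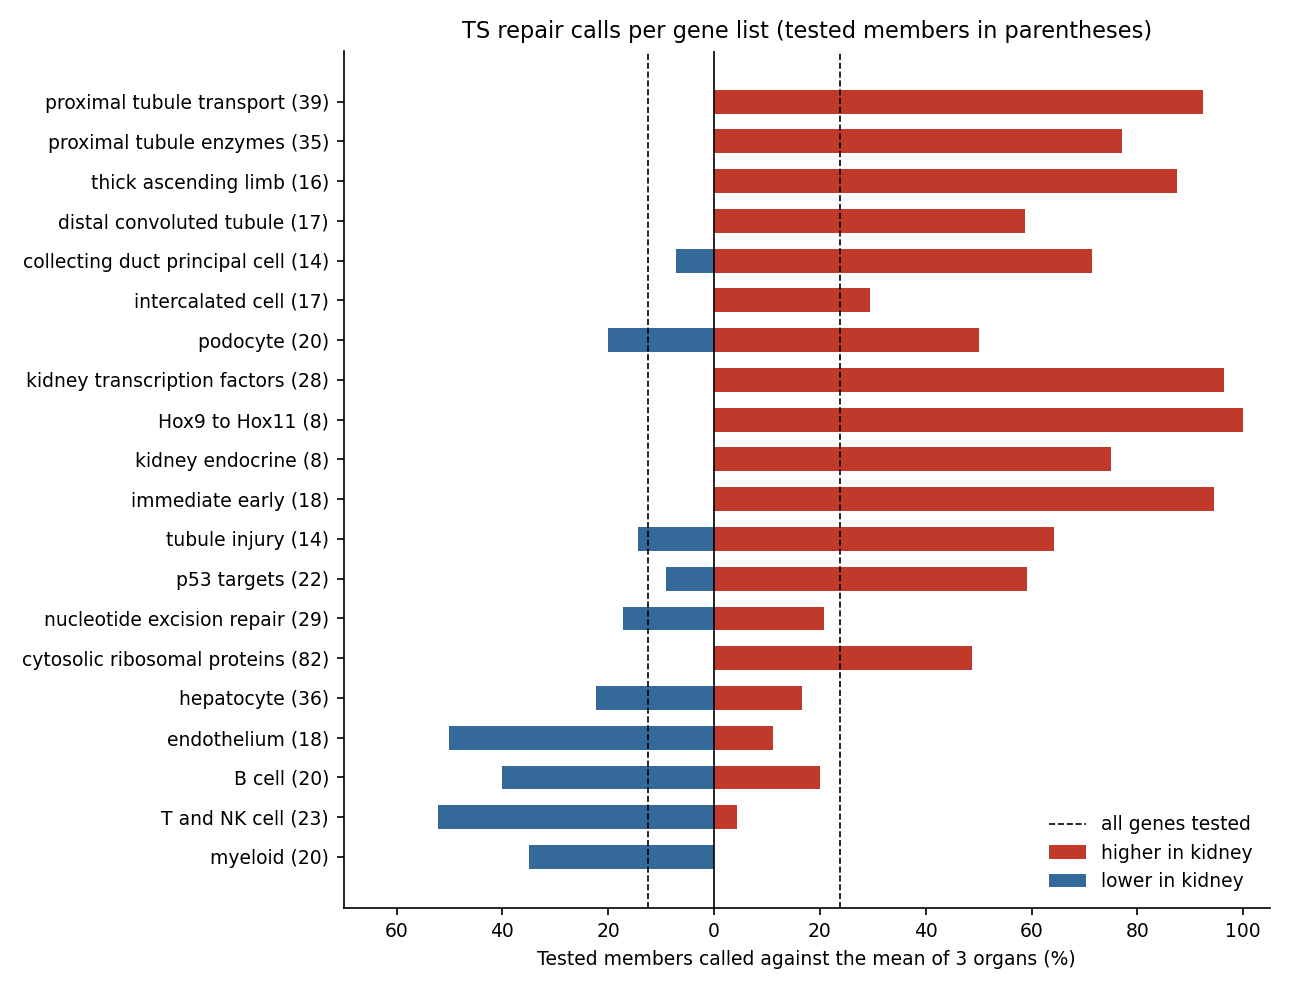
Share of tested members of each gene list that were higher (red, right) or lower (blue, left) in kidney than the mean of the other 3 organs (edgeR adjusted p under 0.05), with the number of tested members in parentheses and dashed lines at the shares of all genes tested, 23.8% and 12.4%. Tubule lists, transcription factors and Hox genes extend far beyond the right line except intercalated cells, and lists of immune and endothelial cells extend beyond the left one.

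Of 28 genes for transcription factors of kidney epithelium, 27 were higher than the mean and 0 lower, under each scaling tried and without either kidney library, with a median log2 difference of 3.62. Against single organs the list divided. Both kidney libraries of Pax2 (192 and 154 CPM), a master gene of the nephron, stood far above the 1.67 to 3.35 CPM of the other 6 (log2 difference 6.19 ± 0.18, edgeR adjusted p = 1.48e-09). Pax8, its close relative, had 93.7 and 118 CPM in kidney against 0.619 to 2.40 CPM. Lhx1, which is needed for the earliest nephron, had 29.4 and 46.1 CPM in kidney, while liver had 1.27 and 1.24, lung 0.586 and 0.610, and spleen 0 and 0.173. Altogether 15 of the 28 were higher in kidney than in each organ, and the others of this kind were Emx1, Emx2, Sim1, Sim2, Tfap2a, Tfap2b, Irx1, Irx2, Esrrb, Grhl2, Mecom and Sall1. For Mecom, a regulator also known from blood stem cells, the margin was small, since lung had 149 and 137 CPM beside 183 and 189 in kidney (log2 difference from lung 0.38 ± 0.13, edgeR adjusted p = 0.0428).

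A second set of these factors was repaired in kidney and liver at like levels. Esrrg, a nuclear receptor gene of oxidative tissues, had 327 and 253 CPM in kidney and 285 and 282 CPM in liver, and all lung and spleen libraries were lower. The difference between kidney and liver was 0.03 ± 0.13 on the log2 scale (edgeR adjusted p = 0.876), whereas that from spleen was 2.63 ± 0.14 (edgeR adjusted p = 6.91e-08). The values of Nr1h4, the bile acid receptor, lay at 65.2 and 78.7 CPM in kidney within a like range of those in liver, at 72.0 and 70.8 CPM. A p above the threshold does not show that kidney and liver were equal for these genes. Hnf4a (46.2 and 62.5 CPM in kidney, 102 and 114 in liver) and Ppargc1a, a coactivator of mitochondrial genes (94.6 and 97.7 CPM in kidney, 140 and 120 in liver), were lower in kidney than in liver (log2 differences -0.99 ± 0.29 and -0.44 ± 0.14, edgeR adjusted p = 0.0141 and 0.0254). Foxi1, a regulator of intercalated cells, was the member that was not called, at 0 and 1.07 CPM in kidney, while its RNA was 10.93 ± 0.53 higher in kidney on the log2 scale (edgeR adjusted p = 1.12e-05).

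**Figure D3:**
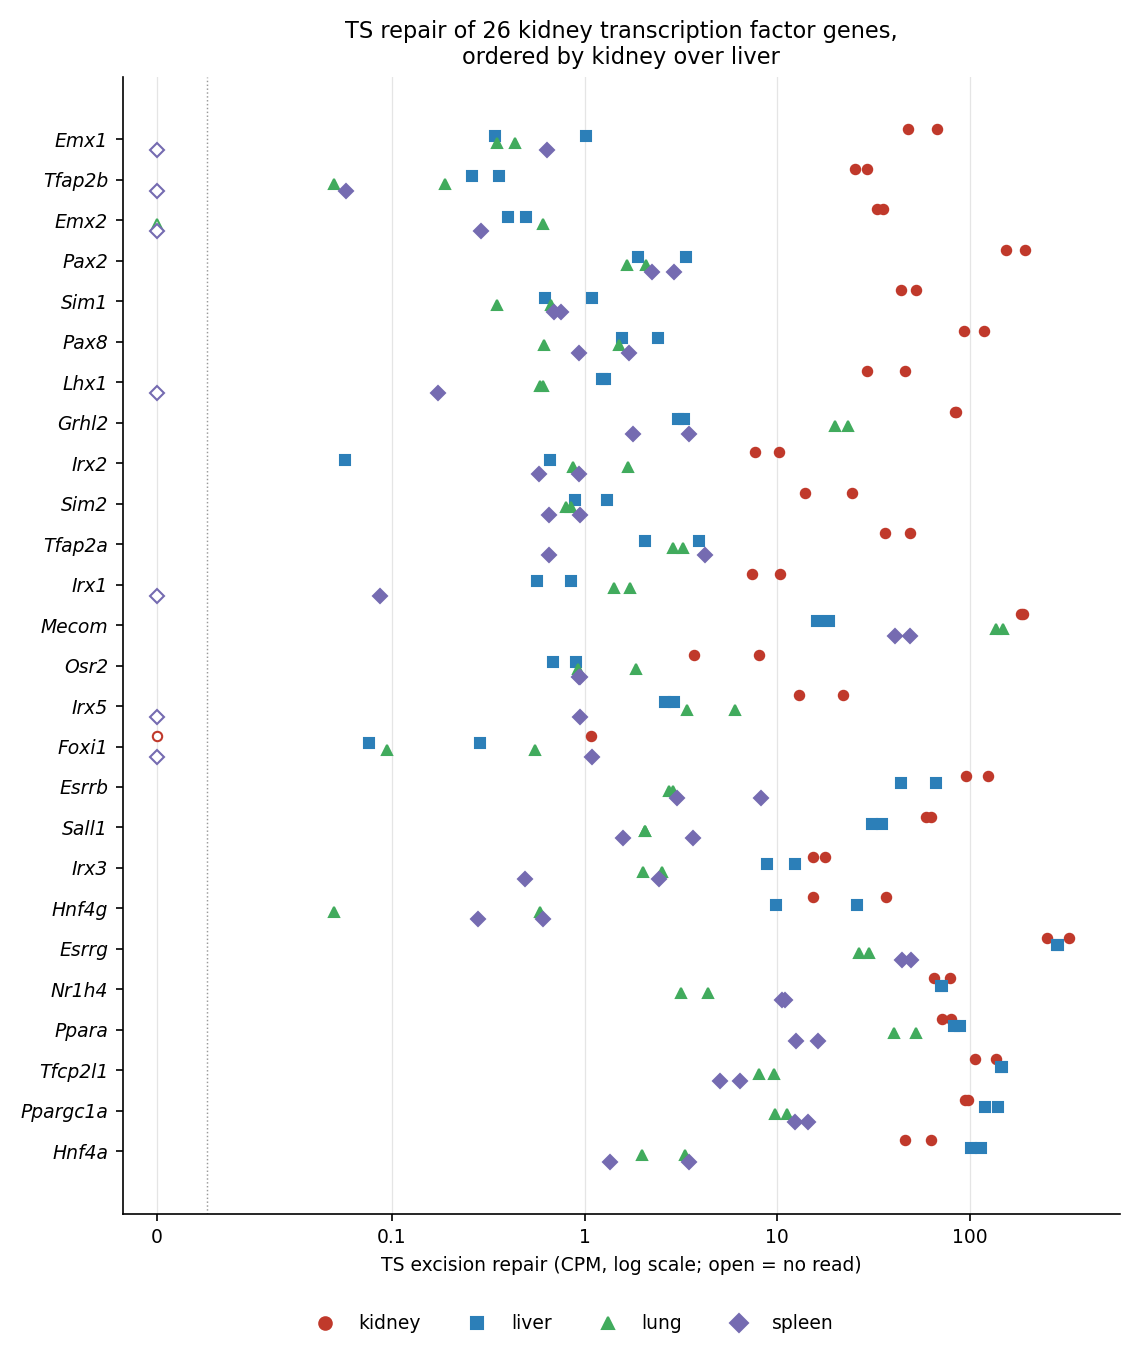
TS excision repair in CPM (log scale, open symbols without a read) of 26 kidney transcription factor genes in each library, ordered by kidney over liver after a small constant was added to both. Emx1 heads the order with kidney at 67.6 and 47.9 CPM and liver at 0.341 and 1.02 CPM, and toward the bottom kidney and liver overlap, as for Esrrg and Nr1h4.

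Over all genes, 679 were higher in kidney than in lung and in spleen without being called against liver, and a further 310 were higher than in lung and spleen and lower than in liver. For comparison, 649 genes were higher than in liver and spleen and not called against lung, with a further 90 lower than in lung, and 270 were higher than in liver and lung and not called against spleen, with a further 57 lower than in spleen. Among 36 hepatocyte genes, 31 were lower in kidney than in liver and 0 higher, while 11 were higher in kidney than in lung and 14 higher than in spleen. Apob, the core protein of very low density lipoprotein, had overlapping values in kidney (54.4 and 32.6 CPM) and liver (36.4 and 41.3 CPM), and 0.0938 to 0.586 CPM were found in lung and spleen (log2 difference from liver 0.16 ± 0.31, edgeR adjusted p = 0.715). Fga, a chain of fibrinogen, had 8.69 and 5.77 CPM in kidney and 11.2 and 10.9 CPM in liver. In contrast, Cps1, a urea cycle enzyme, had 0.0543 and 0.537 CPM in kidney against 62.9 and 57.4 CPM in liver, and Alb, the main plasma protein, had 0 and 1.18 CPM against 9.99 and 20.2 CPM.

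The ERR family of nuclear receptors, which holds Esrrb and Esrrg, binds the half-site AAGGTCA, or TGACCTT on the other strand. The promoters of Ggt1, which was higher in kidney than in each organ, and of Cd84, 1 of the 8 lowest genes, are shown because both hold these letters. They run from 250 bases before to 50 bases after the start in RefSeq on GRCm38.p6, in the direction of the gene, with the half-site in capitals, and lie at chr10:75563882-75564181 (plus strand) for Ggt1 and chr1:171839447-171839746 (plus strand) for Cd84.
Ggt1: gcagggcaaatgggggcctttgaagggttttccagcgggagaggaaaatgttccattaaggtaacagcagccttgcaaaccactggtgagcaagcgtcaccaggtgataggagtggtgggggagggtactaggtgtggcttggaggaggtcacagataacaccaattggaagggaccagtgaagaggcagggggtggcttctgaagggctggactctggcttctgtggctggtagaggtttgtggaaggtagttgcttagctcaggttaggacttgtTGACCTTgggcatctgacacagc
Cd84: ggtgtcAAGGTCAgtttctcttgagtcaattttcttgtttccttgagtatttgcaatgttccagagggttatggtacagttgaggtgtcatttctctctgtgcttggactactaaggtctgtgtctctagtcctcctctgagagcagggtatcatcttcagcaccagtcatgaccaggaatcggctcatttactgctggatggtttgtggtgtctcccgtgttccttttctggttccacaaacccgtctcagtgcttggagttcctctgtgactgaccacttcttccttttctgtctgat
Among 874 promoters of genes higher than in each organ, 3.43% held this half-site, and among 540 promoters of those at least 2-fold higher 4.26% did, beside 3.91% of the 18342 promoters of all genes tested. For genes higher than in lung and spleen but not called against liver the share was 6.15% of 634 promoters, and for genes lower than in each organ it was 3.44% of 698. A match of letters is a description and not a bound site.

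Genes that set position along the body axis were among the strongest. All 8 tested members of the Hox groups 9 to 11, which pattern the embryonic kidney and the trunk around it, were higher in kidney and 6 were higher than in each organ, with a median log2 difference of 5.86. Hoxa10 had 29.1 and 36.7 CPM in kidney, and the other 6 libraries lay between 0.285 and 0.588 CPM (log2 difference 6.31 ± 0.32, edgeR adjusted p = 4.43e-08). Hoxd10 was at 15.4 and 6.95 CPM in kidney and at most 0.228 CPM elsewhere. Endocrine genes of the kidney followed, with 6 of 8 higher and 5 higher than in each organ, beside 23.8% and 4.45% of all genes tested. Ren1, named here after its value had been seen, was not called on the TS (log2 difference 1.11 ± 0.95, edgeR adjusted p = 0.393). Its RNA was 10.43 higher in kidney on the log2 scale. Vdr, the vitamin D receptor, had 167 and 174 CPM in kidney, 39.97 and 39.5 in spleen, 21.8 and 20.04 in lung, and 3.22 and 3.59 in liver. Kl, the co-receptor of a phosphate hormone, had 49.3 and 47.8 CPM in kidney, with lung next at 4.5 and 9.18 CPM. Cyp24a1, which inactivates vitamin D, had 7.01 and 7.84 CPM against at most 1.21 CPM.

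Genes that move cisplatin or break down its conjugates were repaired more in kidney in part. Of 13 tested, 9 were higher than the mean, 1 was lower and 3 were higher than each organ, and with TMM scaling 6 were higher and 1 lower. Their median log2 difference was only 0.43 beside 0.19 over all genes tested, and 0.24 beside -0.002 with TMM scaling. Slc22a2, the organic cation transporter that carries cisplatin into tubule cells, had 37.9 and 34.0 CPM in kidney and at most 2.00 CPM elsewhere (log2 difference 5.27 ± 0.42, edgeR adjusted p = 1.30e-06). Ggt1, an enzyme of the brush border that splits glutathione conjugates, had 35.5 and 48.5 CPM in kidney and 1.498 to 9.03 CPM elsewhere. Slc47a2, an efflux transporter of the same family as the luminal exporter of cations, had 41.7 and 35.4 CPM, with liver next at 12.8 and 22.9 CPM. Atp7a, a copper pump that also carries platinum, was the member that was lower, at 46.1 and 57.05 CPM against 58.8 to 81.8 CPM (log2 difference -0.41 ± 0.13, edgeR adjusted p = 0.0284), and it is named here after its value had been seen.

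Immediate early genes, which are switched on within minutes of a stimulus, were higher in kidney in 17 of 18 cases and lower in 0, and 8 were higher than in each organ. Their median log2 difference was 1.17, and under TMM scaling 16 were higher and 0 lower. Without kidney replicate 2, 14 were higher and 1 lower. Fosb, a partner of Jun in the AP-1 factor, had 26.9 and 24.8 CPM in kidney, while liver had 3.17 and 4.35, lung 11.7 and 8.87, and spleen 4.88 and 3.20 (log2 difference 2.27 ± 0.24, edgeR adjusted p = 1.71e-05). Nr4a3, an orphan nuclear receptor gene, had 39.0 and 57.2 CPM in kidney and 4.80 to 18.5 CPM elsewhere. Egr1, a zinc finger factor of the early growth response, had 72.6 and 48.0 CPM in kidney, with liver next at 30.3 and 20.9 CPM. In RNA, 9 of the 18 were higher in kidney and 1 was lower.

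Markers of tubule injury were higher in 9 of 14 cases and lower in 2, and p53 targets in 13 of 22 and 2. Over all genes tested, the shares were 23.8% and 12.4%. Against each organ, 3 injury markers were higher and 0 lower, and 2 p53 targets were higher and 2 lower. Of the p53 targets, 13 were higher than in liver, 4 than in lung and 13 than in spleen, while 4, 2 and 2 were lower. Spp1, which codes for osteopontin, had 6.30 CPM in both kidney libraries and at most 0.845 CPM elsewhere (log2 difference 4.81 ± 0.79, edgeR adjusted p = 0.000491). Krt8, a keratin of simple epithelia, had 23.2 and 31.4 CPM in kidney but 18.7 and 14.5 in liver, from which it was not called different. Gdf15, a stress cytokine and p53 target, had 22.1 and 28.0 CPM in kidney, and liver was next at 14.5 and 17.3 CPM (log2 difference from liver 0.66 ± 0.27, edgeR adjusted p = 0.0640). These are levels after cisplatin only, so a response to the drug cannot be told from a standing difference between organs.

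The nucleotide excision repair genes themselves did not move one way. Of 29 tested, 6 were higher and 5 lower than the mean, beside 23.8% and 12.4% of all genes tested. The median was 0.01 on the log2 scale beside 0.19 over all genes, and with TMM scaling the counts were 1 and 8. Taken by organ, 11 were higher and 6 lower than in liver, 0 and 1 than in lung, and 1 and 5 than in spleen. Ddb2, a sensor of damage in chromatin, had 27.2 and 16.4 CPM in kidney and 26.4 to 50.6 CPM elsewhere (log2 difference -0.85 ± 0.20, edgeR adjusted p = 0.00540). Rad23b, a partner of the sensor XPC, had 68.2 and 81.4 CPM in kidney, 69.2 and 79.2 in lung, 57.5 and 62.2 in spleen, and 29.6 and 26.5 in liver. The 1 member lower than in each organ was Xrcc1, a scaffold of strand joining, at 110 and 76.5 CPM in kidney and 123 to 147 CPM elsewhere, named after its value had been seen.

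For 285 of the 677 genes with lower repair in kidney than in each organ the highest organ was liver, for 268 spleen and for 124 lung. Over all 19736 genes, the highest of the 3 organs was liver for 6566, spleen for 5694 and lung for 7476. Immune cell lists held 7 of the 677 and 63 of all genes. The 8 lowest by the rule used for the highest were Mrap, Slamf6, Abcg3, Cd84, Pou2af1, Ly9, Stap1 and Sh2d2a. Slamf6 (chr1:171917515-171953170), a receptor of lymphocytes, had 0 and 0.322 CPM in kidney, while liver had 2.09 and 1.90, lung 4.92 and 3.80, and spleen 44.6 and 46.5 (log2 difference -5.26 ± 0.54, edgeR adjusted p = 1.21e-05). Cd84, a receptor of the same family from the same stretch of chromosome 1, had 0.0543 and 0.645 CPM in kidney against 30.6 to 36.2 CPM in spleen. Pou2af1, a coactivator of B cells, had 0 and 0.179 CPM in kidney and 19.4 and 22.6 CPM in spleen. Mrap (chr16:90738207-90749785), an accessory protein of melanocortin receptors, was the 1 of the 8 with liver on top, at 21.8 and 19.6 CPM against 0 and 0.215 CPM in kidney.

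Among the lists, 12 of 23 genes of T and NK cells, 8 of 20 of B cells, 7 of 20 of myeloid cells and 9 of 18 of endothelium were lower in kidney than the mean, beside 12.4% of all genes. With TMM scaling these counts were 13, 8, 8 and 10. Of the B cell genes, 4 were higher than the mean. The counts differed by organ: 17 B cell genes were lower than in spleen and 1 higher, whereas 3 were lower and 5 higher than in liver, and 2 lower and 3 higher than in lung. Of the T and NK cell genes, 17 were lower than in spleen, 8 than in lung and 4 than in liver, and for myeloid genes these counts were 10, 5 and 4. Of the 18 endothelial genes, 12 were higher and 0 lower than in liver, 17 were lower than in lung and 4 lower than in spleen. The 4 spleen markers summed to 7.55 and 7.06 CPM in kidney, 19.4 and 26.8 CPM in spleen and 1.43 to 2.14 CPM in liver and lung. The B cell gene Cd79a made up most of the kidney sum, at 6.14 and 6.16 CPM against 3.10 and 4.44 CPM in spleen, while Ms4a1 had 0 and 0.143 CPM in kidney. Vwf, the clotting factor that endothelium stores, had 13.8 and 12.5 CPM in kidney, while liver had 9.96 and 20.1, lung 199 and 216, and spleen 38.8 and 50.0. Adgre1, the gene of the macrophage antigen F4/80, had 0 and 0.501 CPM in kidney against 2.11 to 20.3 CPM elsewhere (log2 difference -4.40 ± 0.70, edgeR adjusted p = 0.000391). Vpreb3, a B cell gene, went the other way, with 10.9 and 6.59 CPM in kidney and 0.669 to 3.40 CPM elsewhere. Its RNA was lower in kidney (log2 difference -4.41 ± 0.70, edgeR adjusted p = 0.00138). It shares its span with the antisense gene Gm16221, and the part of this overlap was not tested. Of the 39 proteasome genes, Psmb8 and Psmb9, subunits of the immunoproteasome, were the only members lower than in each organ. Psmb9 had 3.75 and 4.55 CPM in kidney and 16.6 to 30.6 CPM elsewhere (log2 difference -2.37 ± 0.23, edgeR adjusted p = 7.08e-06).

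The number of genes called, those lower in kidney above all, depended on which kidney library was used. Without kidney replicate 2, so that replicate 1 stands alone, 1589 genes were lower and 1187 higher than in each organ, against 875 and 889 without kidney replicate 1. Of the 250 genes at least 2-fold lower, 226 were still called lower without replicate 1 and 245 without replicate 2, and of the 590 genes at least 2-fold higher the counts were 530 and 563. With 1 kidney library the spread in these fits came from the other organs' libraries alone, so the counts do not measure how far the kidney replicates agreed. Among genes with at least 2 CPM in the 7 other libraries, 38 of 12352 had no TS read in kidney replicate 1, 3 of 12282 had none in spleen replicate 1, and 0 had none in any of the other libraries. Gbp3, a guanylate-binding protein, is an example of a called gene with unequal replicates, at 0.0543 and 5.12 CPM in kidney and 13.6 to 18.3 CPM elsewhere, and DESeq2 did not call it (adjusted p = 0.0509). The share of this inequality in the calls was not tested.

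RNA-seq of the same organs after cisplatin, from libraries of their own, allowed a comparison with transcript levels. Of the 852 genes that were higher than in each organ and were also tested in RNA, 690 (81.0%) were higher in kidney RNA than the mean of the other organs and 6 were lower, beside 25.8% and 19.8% of all 17895 genes tested in RNA. Of 675 genes lower than in each organ, 417 (61.8%) were lower in RNA and 35 higher. When both assays were asked for genes higher than in each organ, 410 were shared, which is 48.1% of the 852 repair genes (beside 7.85% of all genes tested in RNA) and 30.4% of the 1350 RNA genes (beside 4.45% of all genes tested for repair). Among lower genes 183 were shared, 27.1% of the repair genes (beside 4.24%) and 24.6% of the RNA genes (beside 3.43%). Across 16974 genes, which are not independent replicates, Pearson's r between the log2 differences was 0.657 and Spearman's rho 0.554. The median TS difference ran from -1.26 in genes whose RNA was more than 4 lower on the log2 scale to 4.45 in genes whose RNA was more than 8 higher.

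**Figure D4:**
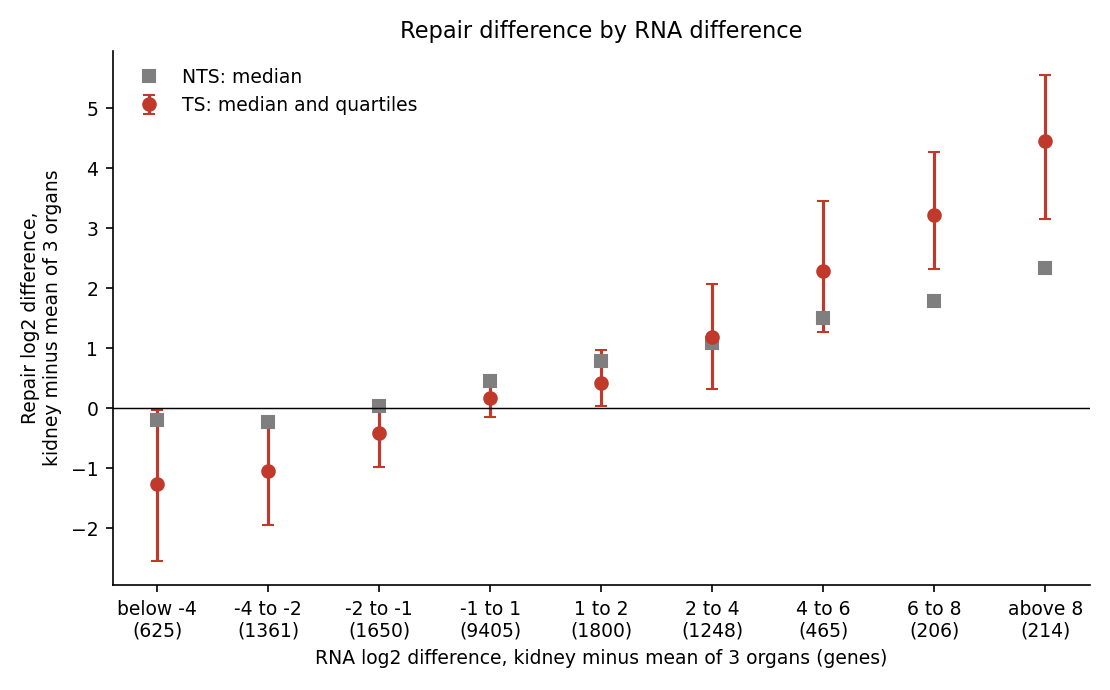
Log2 difference of repair between kidney and the mean of the 3 other organs, by bins of the log2 difference of RNA, with the number of genes in parentheses. Circles with bars are the median and quartiles of TS repair, which run from -1.26 to 4.45, and squares are the median of NTS repair, which run over a narrower range, from -0.24 to 2.35.

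Some genes broke this pattern, 6 upward and 35 downward. Mgst1, a microsomal glutathione transferase, had 34.2 and 29.98 CPM of TS repair in kidney and 8.45 to 17.6 CPM elsewhere (log2 difference 1.39 ± 0.17, edgeR adjusted p = 5.35e-05), while its RNA was lower in kidney (-1.66 ± 0.42, edgeR adjusted p = 0.0126). Ddit4, a stress-induced inhibitor of mTOR signalling, had 28.2 and 23.9 CPM in kidney and 6.96 to 14.3 CPM elsewhere, with RNA lower by a log2 difference of -1.30 ± 0.30 (edgeR adjusted p = 0.00852). In the other direction, Atg10, an enzyme of autophagy, had 53.1 and 65.2 CPM of repair in kidney and 104 to 298 CPM elsewhere, while its RNA was higher (1.77 ± 0.36, edgeR adjusted p = 0.00465). Slc2a9, a transporter of urate, had 75.5 and 55.0 CPM in kidney, while liver had 374 and 382, lung 85.9 and 84.7, and spleen 212 and 223, and its RNA was higher in kidney (0.73 ± 0.21, edgeR adjusted p = 0.0248). Of 82 cytosolic ribosomal protein genes, 40 were higher in TS repair and 0 lower, and with TMM scaling 20 were higher. Their median was 0.79 against 0.19 over all genes, and their median RNA difference was -0.66. In RNA, however, only 3 of the 82 were called lower and 2 higher. By organ, 58 were higher than in liver, 5 than in lung and 10 than in spleen. The shares over all genes tested were 30.9%, 14.7% and 17.4%. Only 3 of the 82 were higher than in each organ.

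Repair levelled off among the most abundant kidney transcripts. Among protein-coding genes with RNA higher in kidney than in each organ, TS repair per 1000 GG dinucleotides of the strand rose from a median of 1.73 and 1.87 CPM in the 2 kidney libraries for RNA under 3 CPM to 32.0 and 35.2 CPM for RNA of 30 to 100 CPM. It was 29.1 and 31.8 CPM for the 34 genes above 1000 CPM. Umod, at 3967 and 4474 CPM of RNA in kidney, had 5.04 and 3.66 CPM of repair per 1000 GG, and Kap, an androgen-regulated kidney protein with 13204 and 8808 CPM of RNA, had 0 and 2.86 CPM, too few reads to be tested.

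The NTS, which general repair serves, was tested in the same way. The genes below were chosen by their TS, so their NTS counts and medians are not set against those of the TS. Of the 869 genes higher than in each organ on the TS and also tested on the NTS, 406 (46.7%) were higher on the NTS and 6 lower, beside 17.0% and 2.78% of the 19637 genes tested there. Their median NTS difference was 1.43 on the log2 scale, and the median over all genes was 0.46. Of 669 genes lower on the TS, 77 (11.5%) were lower on the NTS and 55 higher. NTS reads come from the same libraries as the TS reads, and the median over all genes moved to -0.08 with TMM scaling.

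Damage-seq, which reads the adducts that remain in the DNA, was used as a second measurement on these genes. It was taken as sums over the list and without a test. Per the study's methods, the chromatin pelleted during the XR-seq preparation was kept for Damage-seq, so the 2 assays are not independent samples. In the 590 genes at least 2-fold higher in kidney repair, Damage-seq reads per GG on the TS were 0.869 and 0.926 of those on the NTS in the 2 kidney libraries, and 0.983 to 1.005 in the 6 others. In the 250 genes at least 2-fold lower, the ratio was 0.977 and 0.978 in kidney and 0.799 to 0.879 elsewhere. Over all genes tested the kidney ratios of 0.838 and 0.9005 fell within the range of the others, 0.790 to 0.880, for 1 library and above it for the other. In both lists the 2 kidney libraries lay apart from the 6 others, below them where kidney repair was higher and above them where it was lower.

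**Figure D5:**
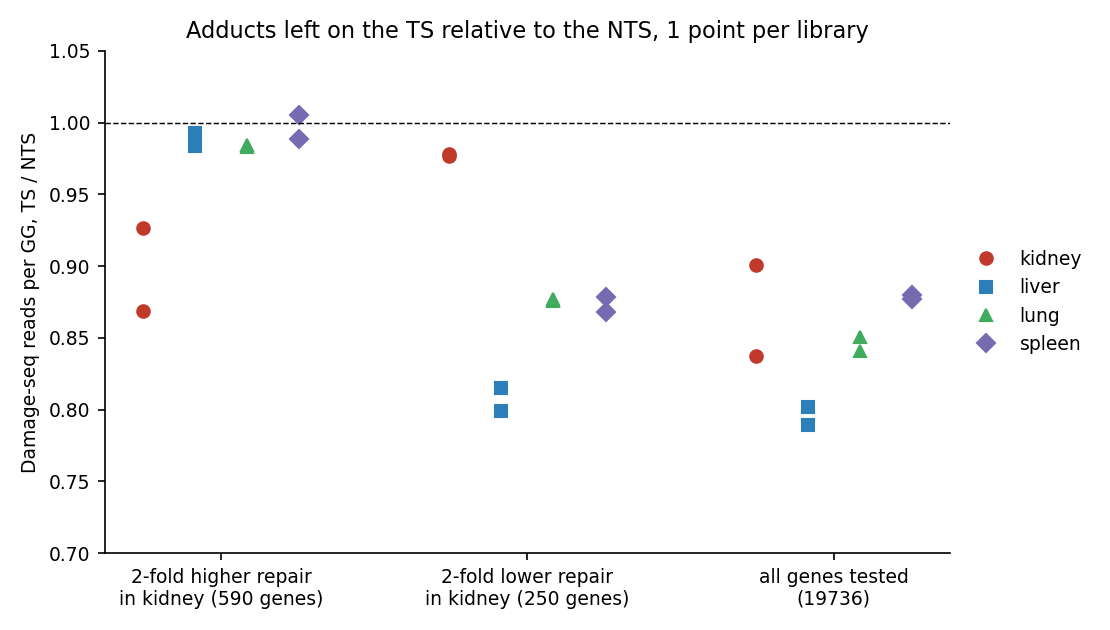
Damage-seq reads per GG on the TS divided by those on the NTS, 1 point per library, for genes at least 2-fold higher or lower in kidney TS repair than in each other organ and for all genes tested. Kidney lies below the other organs in the first set, at 0.869 and 0.926, and above them in the second, at 0.977 and 0.978.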

How the data were processed

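Per the labels and the study's methods, XR-seq and Damage-seq reads were trimmed (cutadapt), mapped to mm10 (BWA), cleared of duplicates (Picard) and restricted to reads with GG where the adduct lies. The deposited files hold raw counts per gene, separately for each strand. RNA-seq reads went through STAR and featureCounts, and the authors deposited unnormalized counts per gene. Tool versions are not given in the sources used here, and nothing before counting was repeated. GENCODE M21 on GRCm38 placed 25040 of the 25058 genes.

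The model was edgeR 4.0.16 under R 4.3.3: filterByExpr by organ, an organ factor with 4 levels, a quasi-likelihood fit, and Benjamini-Hochberg adjusted p below 0.05. Library size was the TS plus NTS total for XR-seq, and TMM factors were used for RNA-seq. Control RNA-seq libraries were left out. DESeq2 1.42.0, TMM scaling, other filters, a replicate block, 2 groups and leaving out each library were alternatives. The fits were tested on simulated data.

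The members and gene lists were chosen with earlier results of these data known. Genes were named as the 8 highest and 8 lowest protein-coding genes with at least 20 CPM in an organ, 3 per list, the transcription factors, the 6 called genes with the largest difference between kidney replicates, and the 5 each way with RNA opposite, apart from markers and genes said to have been chosen after their values were seen. Counting 3 reads as the limit that a count of 0 allows, a TS level below 0.163 and 0.107 CPM was not detectable in the 2 kidney libraries, which covers counting error only. Sequences came from RefSeq promoters on GRCm38.p6, and 14522 of the tested genes had one. Some genes and 1 promoter motif are not reported here.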

Additional observations from a re-analysis of the deposited data

How the results depend on the processing

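Of 2583 recomputed differences of 157 named genes, 2395 kept direction and side of the threshold, 187 kept the direction but missed the threshold, and 1 turned, Slc34a2 at -0.79 with 2 groups. Genes higher and lower than the mean of the organs numbered 280 and 120 with 2 groups, 2649 and 1480 against a log2 difference of 0.4, and 2055 and 865 without overlapping genes, a smaller set of genes. They numbered 3054 higher with TMM, 3746 lower with DESeq2 and 1577 lower with the study's filters. Against each organ, 381 were higher and 204 lower without overlapping genes, 1075 lower with DESeq2 and 399 lower with the study's filters. At 2-fold, 283 and 97 were called without overlapping genes, and 382 were lower with DESeq2. NTS counts were 1087 and 1412 with TMM and 1483 and 2068 with DESeq2, where the median of all genes also moved. Other causes were not tested.

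Leaving out 1 library, with the lone library of that organ assumed to vary like the others, gave 587 to 1187 genes higher and 446 to 1589 lower than each organ, 200 to 1080 at least 2-fold lower, 3708 to 5079 and 2065 to 3604 against the mean, 2047 to 4554 and 370 to 2893 on the NTS, and 2900 to 5577 and 2296 to 4976 in RNA. The highest counts of lower repair came without kidney replicate 2 (1589, 1080 and 2893) and the lowest without lung replicate 1 (446, 200 and 370). RNA counts were lowest without kidney replicate 2, 2324 genes were lower in RNA without kidney replicate 1, and the lowest NTS count of higher genes came without liver replicate 1.

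Correlations of replicate differences between organs lay between -0.08 and 0.06. These differences also hold counting error, so values near 0 do not show whether replicate numbers pair the libraries by mouse. With the replicate block, 4384 genes were higher and 2452 lower than the mean, 837 and 704 than each organ, 580 and 265 at 2-fold, 3009 and 553 on the NTS, and 4282 and 3237 in RNA, so no count moved by 1.5 times.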

Other observations

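Among 20 claudin genes, which code for proteins of tight junctions, 12 were higher in kidney TS repair than the mean of the other organs and 0 lower, with a median log2 difference of 2.58. Of 88 cytochrome P450 genes, 22 were higher and 8 lower, near the 23.8% and 12.4% of all genes tested. Against liver, 43 of them were lower, beside 15.5% of all genes. Respiratory chain genes had higher RNA in kidney for 67 of 80. In repair, 16 of 81 were higher and 1 lower, beside 23.8% and 12.4% of all genes. With TMM scaling these counts were 6 and 1. Of these 81 genes, 49 were higher than in liver, 0 higher than in lung and 1 higher than in spleen. Among 44 collagen genes 13 were higher and 11 lower, beside the same shares of 23.8% and 12.4%.

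Gene length went with the calls, and longer genes hold more reads. Of 1570 genes up to 3000 bp long, 2.61% were higher than in each organ and 0.319% lower, while of 563 genes above 300000 bp 6.75% were higher and 12.4% lower. The median log2 difference ran from 0.44 in the shortest genes to -0.13 between 100000 and 300000 bp. Its part in the results was not tested.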
